A study of Mus musculus with 40 samples.

Results

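The kidney arrays of a phenobarbital study in mice were compared between treated and control animals. They were chosen by tissue alone: 20 of the 40 arrays of the series were from kidney, 10 from control mice and 10 from mice given phenobarbital (PB), and the other 20 were from the livers of the same animals. All mice were males of the hybrid strain B6C3F1/Crl, the offspring of C57BL/6 males and C3H/He females, 29 to 32 days old on delivery. After 5 days they were split at random, and the treated group drank water with 0.05% (w/v) PB for 28 days while the control group received none. The study used the liver as the organ in which PB promotes tumours and the kidney as the organ in which it does not. Total RNA from a piece of frozen whole kidney was hybridised to 1 Affymetrix Mouse Genome 430 2.0 array per animal. Mice are named by their donor numbers, 1 to 10 for controls and 11 to 20 for PB.

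The kidney filters blood in the glomeruli and recovers water, salts, glucose, amino acids and phosphate along the tubule, most of it in the proximal tubule. Proximal tubule cells also oxidise fatty acids for energy, make glucose, take up and secrete organic anions and cations, and carry many of the enzymes that oxidise and conjugate foreign compounds. PB acts on hepatocytes through the constitutive androstane receptor (CAR), a nuclear receptor that switches on cytochrome P450 genes such as Cyp2b10, and CAR is far less abundant in kidney than in liver.

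Values are the linear signals of the Affymetrix MAS5 method, in which each array is scaled to the same trimmed mean. Genes were tested as log2 signal with limma, a linear model with moderated variances fitted over all genes, when the mean signal reached 50 in either group, and a gene is called when its adjusted p (Benjamini-Hochberg) is under 0.05. Where several probe sets measured a gene, the brightest on average stands for it. Of 10083 genes tested, 447 were called, which is 4.43% of them. PB kidneys were higher for 260 genes (2.58%) and lower for 187 (1.85%). Most differences were small: the median size among called genes was 0.30 on the log2 scale, and 31 of the 260 increases and 28 of the 187 decreases reached a 1.5-fold ratio of group means. For 24 genes (0.238%) the groups did not overlap at all, 16 of them higher and 8 lower with PB. Over probe sets, 627 of 19229 were called (3.26%). The study's own thresholds, an unadjusted p up to 0.001 with a ratio of 1.5 or more, were passed by 97 probe sets (0.504%) with the p of limma and by 59 with a Student test on linear signals.

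The arrays looked like kidney throughout. Umod, the uromodulin of the thick ascending limb, had a mean of 11599 in controls and 11179 in PB kidneys and reached at most 122.9 in any liver. Pairs of kidney arrays correlated at r between 0.923 and 0.947 over log2 signals. Some kidneys also carried transcripts of other tissues. Albumin (Alb) was 1030 in PB kidney 19 and between 416 and 923 in control kidneys 1, 3, 9 and 10, and at most 195 in the other 15. Serpina1c, another hepatocyte marker, was between 392 and 1320 in these 5 kidneys and at most 272 in the others. Cyp3a11 was between 67.4 and 642 in control kidneys 1, 9 and 10 and PB kidney 19. In control kidney 3 it was 26.6, with up to 49.3 in the other kidneys. These 5 are called the kidneys with liver transcripts. Over 8 tested hepatocyte markers, of which 1 was called lower, the summed signal ranged from 7777 to 14594 in controls and from 8248 to 12154 with PB. This sum did not follow albumin in every kidney. It was 12958.5 in control kidney 4, where albumin was 72.9, and 12050.1 in control kidney 1. Over 14 tested fat cell markers the sum ranged from 10050 to 15168 in controls and was 24310, 20841 and 16850 in PB kidneys 12, 15 and 17, against 11305 to 15106 in the other PB kidneys. Single fat cell genes were higher in more animals. Adipoq and Cox8b were above all controls in 8 of 10 PB kidneys, Cidea in 7 and Ucp1 in 6. Without PB kidneys 12, 15 and 17 the 11 markers still tested had a median log2 difference of 0.46, and 1 of them was called. Leaving out the 5 kidneys with high albumin left 61 genes called, 59 of them among the 447 with the same direction, and leaving out the 3 kidneys with high fat cell markers left 241, of which 218 were shared. Both settings also leave fewer animals, the first mainly fewer controls, and the effect of group size on these counts was not tested. With the mean log2 level of the fat cell markers as a covariate, 41 genes were called, of which 39 were shared. Slc14a2, the urea transporter of the inner medulla, was listed at 11.2 in control kidney 4 and at 19.8 in the lowest PB kidney, against medians of 210 and 276. In bulk tissue fewer cells of a type and less RNA per cell cannot be told apart.

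The kidneys also differed among themselves along the direction of the treatment effect. Control kidney 5 was the control nearest to the PB side for 140 of the 447 called genes (31.3%), more than any other control, the next being control kidney 6 with 54. On the other side, PB kidney 14 was nearest to the controls for 107 genes (23.9%) and PB kidney 11 for 92 (20.6%). Without control kidney 5, 621 genes were called.

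The lowest adjusted p belonged to Rdh16f2, a short-chain dehydrogenase of the retinol dehydrogenase family. Its signal ran from 303 to 585 in control kidneys, with a median of 389, and from 735 to 1154 in PB kidneys, with a median of 892. Every PB kidney was above every control. The mean rose 2.23-fold, from 404 ± 91.5 to 899 ± 114 (SD, n = 10 each), a log2 difference of 1.18 ± 0.10 (SE; adjusted p = 4.26e-07, limma). In liver the same probe set had a mean of 972 without and 502 with PB.

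Pigr, the receptor that carries polymeric IgA and IgM across epithelia into urine and bile, also rose without overlap. It ranged from 698 to 1223 in controls (median 959) and from 1462 to 2442 with PB (median 1872). The mean rose 1.92-fold, by 0.95 ± 0.10 on the log2 scale (adjusted p = 7.78e-06, limma). A second probe set of Pigr rose by 0.92. The liver means of Pigr were 7884 without and 7751 with PB.

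The stretch around the start of Pigr is shown because the gene led the epithelial changes and the window holds an E-box, the 6 letters CACGTG that basic helix-loop-helix factors bind, written in capitals. The sequence is from RefSeq for GRCm38.p6, chr1:130826434-130826733, plus strand, and covers 250 bases before to 50 bases after the gene's start. The E-box begins 71 bases before the start. These letters, which read the same on both strands, were found in 7.15% of all 32851 promoter windows of this length, and the match is a description of the sequence only.
Pigr: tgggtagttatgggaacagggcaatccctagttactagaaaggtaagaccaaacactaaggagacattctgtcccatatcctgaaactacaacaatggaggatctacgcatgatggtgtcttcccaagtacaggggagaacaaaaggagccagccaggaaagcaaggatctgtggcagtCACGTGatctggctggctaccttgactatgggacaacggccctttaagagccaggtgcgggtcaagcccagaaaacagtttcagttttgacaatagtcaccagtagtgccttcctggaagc

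**Figure D1:**
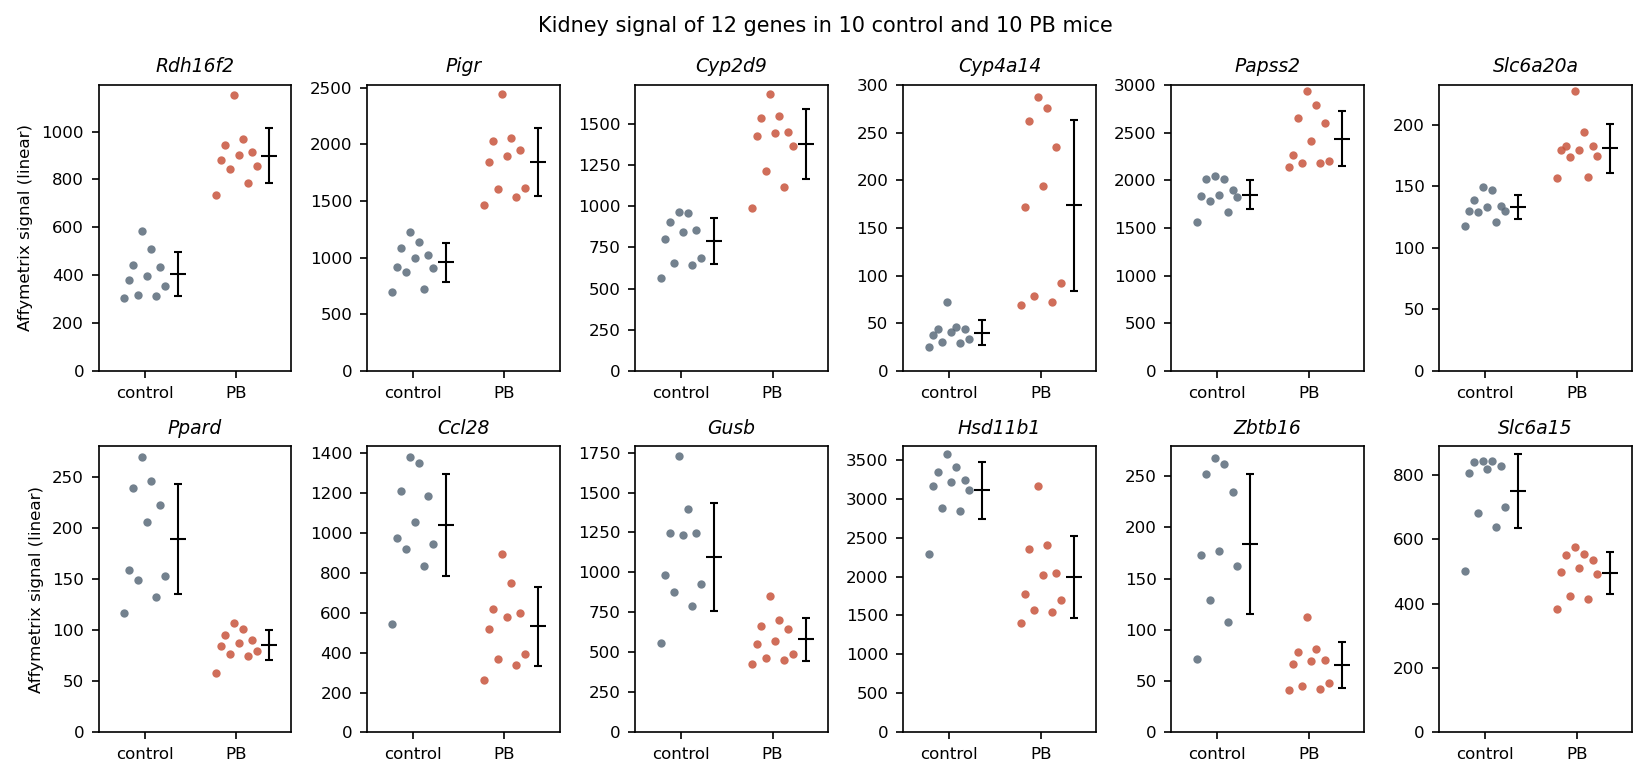
Kidney signal (linear MAS5 scale, y axis) of 12 genes in 10 control and 10 PB mice; each point is 1 kidney, and the bar to its right is the mean with the SD. Rdh16f2, Pigr, Cyp2d9, Papss2, Slc6a20a and Ppard do not overlap between groups, while Cyp4a14, Ccl28, Gusb, Hsd11b1, Zbtb16 and Slc6a15 overlap in part.

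Genes of drug metabolism were looked at first among the groups, since PB is the textbook inducer of these enzymes in liver. Cyp2b10, the standard CAR target, ranged from 34.5 to 56.3 in control kidneys and from 18.4 to 55.1 in PB kidneys. Both group means were under 50 and it was not tested in kidney. In the livers of the same mice its mean went from 25.4 to 11482. Of 16 tested genes for CAR, PXR, their partners and cofactors 0 were called in kidney by limma or by the Welch test, and 4 had an unadjusted p under 0.05.

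Of 17 tested cytochromes P450 of families 1 to 3, 3 were called higher and 1 lower. Cyp2d9, a steroid hydroxylase typical of male mice, ranged from 566 to 966 in controls and from 989 to 1683 with PB, so that the groups did not overlap. Its mean rose 1.75-fold, by 0.81 ± 0.10 (adjusted p = 9.2e-05, limma). The liver difference was 0.15 (adjusted p for the difference between tissues = 0.00032, limma). The other 2 were Cyp2d12, with a log2 difference of 0.62 that was called in 8 of the 20 repeats that left out 1 kidney, and Cyp2c23, an arachidonic acid epoxygenase, with a difference of 0.52. Cyp2j13 fell by 0.33. Members of these families are close in sequence, so a probe set can take up RNA of a neighbour.

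Calls among conjugating enzymes were all increases. Of 18 glutathione S-transferases tested, 6 were called and all 6 were higher, with a median of 0.16 over the 18 against 0.01 over all genes. Gsta2, which conjugates products of lipid peroxidation, went from 1534–2831 in controls (median 2012) to 2310–4244 with PB (median 3214), with 6 PB kidneys above all controls. The difference was 0.62 ± 0.11 (adjusted p = 0.00185, limma), against 2.12 in liver. Without the 5 kidneys with liver transcripts 2 of the 18 transferases were called, likewise without the 3 with high fat cell markers, and with the fat cell marker covariate 0 were called by limma. Gsto1, higher by 0.41, kept its call in 7 of the 20 repeats without 1 kidney. Papss2, which makes the sulfate donor PAPS, did not overlap between groups, at 1560–2043 against 2144–2938. Its difference was 0.40 ± 0.06 in kidney (adjusted p = 0.0007, limma) and 0.88 in liver. Both further probe sets of Papss2, which differed by 0.14 and by 0.19 in kidney, were not called. The sulfotransferase Sult1c2 rose by 0.23 in kidney, against a liver difference of 1.66. Papss2 and Sult1c2 were the 2 calls among 5 tested sulfotransferases and PAPS synthases. The median of the 5 was -0.01, and 2 of the 5 differences were above 0. Of 11 aldo-keto reductases Akr1c13 was the 1 call, higher by 0.52, whereas 2 of the 11 differences were above 0 and the median was -0.08. Of 15 aldehyde dehydrogenases 2 were called higher, Aldh1a1 by 0.45 and Aldh1a7 by 0.37, with a median of 0.03. Of 18 flavin monooxygenases and other oxidases 4 were called higher, among them Fmo2 by 0.29 and Maob, which breaks down amines, by 0.42, with a median of 0.01. By limma and by the Welch test 0 of 7 UDP-glucuronosyltransferases and 0 of 6 carboxylesterases were called, with 1 and 4 of them at an unadjusted p under 0.05. The list of NRF2 targets, genes of the oxidative stress response, had 4 of 23 members called, all higher, and 3 of the 4 were the glutathione S-transferases Gsta2, Gsta3 and Gsta4. The fourth was Osgin1, with a difference of 0.52 in kidney and -0.55 in liver.

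Genes of omega-hydroxylation and fatty acid oxidation were mostly higher where they were called. Of 42 genes tested for fatty acid oxidation and PPAR targets, 10 were called higher and 1 lower, with a median of 0.09. Cyp4a14, a fatty acid omega-hydroxylase and a standard target of PPARα, was below 50 in 9 of the 10 controls, with a median of 39.4 and a highest value of 72.2. With PB it ranged from 69.7 to 288 (median 183), and 9 of 10 PB kidneys were above all controls. The PB mean of 174 was at least 3.48 times the limit of 50 (log2 difference 1.96 ± 0.27, adjusted p = 0.000177, limma). Within the PB group kidneys 13, 14, 18 and 20 lay between 69.7 and 92.0 and the other 6 between 172 and 288.

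Its relative Cyp4a31 was more abundant and did not overlap between groups, at 887–1161 against 1163–1723, a difference of 0.44 ± 0.07 (adjusted p = 0.000762, limma). Acaa1b, a peroxisomal thiolase, rose by 0.46 from a mean of 2882 to 3965, again without overlap. The acyl-CoA thioesterases Acot1, Acot2 and Acot3 rose by 0.42, 0.20 and 0.52, the carnitine-acylcarnitine carrier Slc25a20 by 0.28, the mitochondrial thiolase Acaa2 by 0.29, the lipid droplet protein Plin2 by 0.33 and the pantetheinase Vnn1 by 0.37. In contrast Ppard, the gene for the nuclear receptor PPARδ, ranged from 117 to 270 in controls (median 182) and from 58.0 to 107 with PB (median 85.9), with no overlap. It fell by 1.11 ± 0.14 on the log2 scale (adjusted p = 9.2e-05, limma). Its liver difference was -1.24, from a mean of 74.3. Leaving out the kidneys rich in fat cell markers left 8 higher and 1 lower in this list, and leaving out those with liver transcripts left 4 and 1.

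Cyp4a12a, the omega-hydroxylase that makes 20-HETE in male mice, went against its relatives. It ranged from 3916 to 5786 in controls and from 3468 to 4758 with PB, with 6 PB kidneys below all controls. It fell by 0.34 ± 0.07 (adjusted p = 0.00399, limma), whereas the liver difference was 0.17 (adjusted p for the difference between tissues = 5.16e-05, limma). Of 65 subunits of the mitochondrial respiratory chain 0 were called by limma and 1 by the Welch test, 3 had an unadjusted p under 0.05, and the median was -0.03.

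Amino acid, purine and pyrimidine enzymes changed in single members. Dpys, which opens the ring of dihydropyrimidines, ranged from 32.6 to 77.9 in controls (median 54.8) and from 72.8 to 134 with PB (median 94.2). In all, 9 PB kidneys were above all controls, and the difference was 0.82 ± 0.14 (adjusted p = 0.00187, limma). On the purine side Nt5e, the ecto-nucleotidase that makes adenosine from AMP on the brush border, fell by 0.50 and Pnp, purine nucleoside phosphorylase, by 0.29. Of 53 genes for ammonia, glutamine and amino acid metabolism 3 were called, all higher: Hao2, a peroxisomal hydroxyacid oxidase, by 0.53, Hpd of tyrosine breakdown by 0.47 and the alanine aminotransferase Gpt2 by 0.30. This share was near the 4.43% called over all genes. The median of the 53 was 0.02, against 0.01 over all genes. Of 30 genes for gluconeogenesis and glycolysis 4 were called higher, among them the glycogen phosphorylase Pygl with 0.46, and none lower. The list median of 0.02 was close to that of all genes. This list had 0 calls by limma without the kidneys with liver transcripts, and 2, all higher, without those with high fat cell markers. The same settings left 1 and 2 calls for ammonia, glutamine and amino acid metabolism, all higher. For pyrimidine and purine breakdown the first left 1 higher, and the second 1 higher and 2 lower. Each of these lists had 0 calls by limma with the fat cell marker covariate.

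Markers of the straight proximal tubule and the thick ascending limb gave no call. By limma and by the Welch test 0 of 15 markers of the straight proximal tubule and 0 of 13 of the thick ascending limb were called, with 0 and 4 at an unadjusted p under 0.05. Lrp2 (megalin, the endocytic receptor of the proximal tubule) was 5671 ± 289 in controls and 5524 ± 381 with PB, and Kap, the androgen-regulated protein of the same cells, 17571 ± 2404 and 16255 ± 1652. Umod differed by -0.05 (adjusted p = 0.635, limma). Of 19 markers of the convoluted proximal tubule 2 were called higher, and their summed level ranged from 54519 to 64515 in controls and from 54070 to 62222 with PB.

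Calls among the markers of the other segments were all increases. In collecting duct principal cells 3 of 15 markers were called, all higher, with a median of 0.17. Aqp3, the water channel of their basolateral membrane, ranged from 331 to 474 in controls and from 452 to 607 with PB and rose by 0.34 ± 0.07 (adjusted p = 0.0039, limma). Nr3c2, the mineralocorticoid receptor, went from a mean of 44.9, under the limit of 50, to 72.7, at least 1.45 times that limit (difference 0.73), and Hsd11b2, the enzyme that keeps glucocorticoids from that receptor, rose by 0.16. Of 13 intercalated cell markers 2 were called higher, Foxi1, their master transcription factor, by 0.35 and the ammonia channel Rhcg by 0.19. Of 18 markers of the distal convoluted and connecting tubule 2 were called higher, Tsc22d2 by 0.36 (a second probe set differed by -0.01) and Stk39 (SPAK, the kinase that activates the salt transporter of this segment) by 0.27. Podocytes had 2 of 9 called, Ptpro by 0.44 and Podxl by 0.20, and the calls in the proximal convoluted tubule were Aqp1 by 0.20 and Slc7a8 by 0.26. Calls for Rhcg, Hsd11b2 and Slc7a8 were lost in 13 to 15 of the 20 repeats that left out 1 kidney. Those for Stk39 and Podxl were lost in 9. Without the 5 kidneys with liver transcripts 0 principal cell, intercalated cell, podocyte or proximal markers were called by limma.

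The 8 lists of transport genes held 190 different tested genes, of which 22 were called (11.6%, against 4.43% of all genes), 15 higher and 7 lower. Their median difference was 0.06 over all 190. The lists were chosen with earlier results of these data known, so the 2 shares are not a test. Without the 5 kidneys with liver transcripts 2 ABC transporters and 2 amino acid carriers were called higher by limma and 1 amino acid carrier lower. The other transport lists then had no call. With the fat cell marker covariate the calls were 1 amino acid carrier and 1 gene for sodium, potassium, chloride and acid-base transport, both higher. Of 25 organic anion and cation transporters 2 were called and both were lower. Slco1a1, an uptake carrier for organic anions and steroid conjugates on the proximal brush border, ranged from 3184 to 4875 in controls (median 4277) and from 2226 to 3796 with PB (median 3119). Of the PB kidneys 5 were below all controls, and it fell by 0.48 ± 0.09 (adjusted p = 0.0039, limma). Slc22a30 fell by 0.21. Of 19 ABC transporters Abcc9, the sulfonylurea receptor of vascular potassium channels, rose by 0.51 and the cholesterol exporter Abca1 by 0.27. The call for Abca1 held in 6 of the 20 repeats without 1 kidney. By limma and by the Welch test 0 of 16 carriers of phosphate, sulfate and dicarboxylates and 0 of 25 genes for calcium, magnesium, vitamin D and Klotho were called, with 3 of each at an unadjusted p under 0.05. Calb1 of the latter list differed by -0.03 in its brightest probe set. A dim probe set of Calb1, with means of 52.1 and 84.7, was called higher by 0.72 (adjusted p over probe sets = 0.00363, limma).

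Amino acid carriers had 5 of 30 members called higher and 1 lower. Slc6a20a, a carrier of proline and other imino acids, ranged from 118 to 150 in controls and from 157 to 227 with PB, without overlap. It rose by 0.44 ± 0.06 (adjusted p = 0.000281, limma). Slc38a3, the glutamine carrier used in acidosis, rose by 0.33 and Slc6a18 by 0.15. Slc36a2 rose from a mean of 25.9 to 58.4, at least 1.17 times the limit of 50, and is also on the list of fat cell markers. The fall was in Slc6a15, a carrier of branched-chain amino acids and proline, which ranged from 501 to 844 in controls (median 811) and from 385 to 576 with PB (median 506). It fell by 0.60 ± 0.09 (adjusted p = 0.00057, limma), and apart from control kidney 5 at 501 every control was above every PB kidney.

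Among 24 carriers of glucose, urate and monocarboxylates Slc16a1 (MCT1, a lactate carrier) fell by 0.43, Slc16a14 fell by 0.52 and Slc2a4 (GLUT4, the insulin-regulated glucose carrier of fat and muscle) rose by 0.35. For sodium, potassium, chloride and acid-base transport 5 of 41 genes were higher and 2 lower. The membrane-bound carbonic anhydrases went in opposite directions, Car14 up by 0.40 and Car4 down by 0.25, and Nedd4l, which removes the epithelial sodium channel from the membrane, fell by 0.24.

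Genes of steroid metabolism and androgen response had the largest share of decreases among lists with 10 or more tested genes, 5 of 19, with 1 increase and a median of -0.12. Gusb, β-glucuronidase and a standard androgen-induced gene of mouse kidney, ranged from 557 to 1726 in controls (median 1110) and from 428 to 854 with PB (median 562). It fell by 0.88 ± 0.16 (adjusted p = 0.0024, limma), and 5 of 10 PB kidneys were below all controls. Hsd11b1, which regenerates active glucocorticoid, ranged from 2291 to 3566 in controls (median 3187) and from 1406 to 3156 with PB (median 1902) and fell by 0.67 ± 0.11 (adjusted p = 0.00161, limma). Ttpa, the α-tocopherol transfer protein, fell by 0.66. Slco1a1 and Cyp4a12a, described above, were the other 2, and Hsd11b2 was the increase.

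The same animals stood out in several of these genes. Control kidney 5 was the lowest control for Gusb (557), Hsd11b1 (2291), Slco1a1 (3184) and Ttpa (217), and the highest control for Rdh16f2 (585) and Pigr (1223). PB kidney 14 was the highest PB kidney for Gusb (854), Hsd11b1 (3156), Slco1a1 (3796) and Ttpa (272), and the lowest for Pigr (1462). The summed markers of the straight proximal tubule were also lowest among controls in kidney 5, at 57267.5 against 57276.6 in kidney 6. Among PB kidneys they were highest in kidney 14, at 73628.7. With the proximal tubule marker level as a covariate Gusb differed by -0.908 (adjusted p = 0.000712, limma) and Hsd11b1 by -0.685 (adjusted p = 0.000505, limma). The part of tubule content in the values of single kidneys was not tested. Without the 5 kidneys with liver transcripts 0 genes of the list were called by limma, and Gusb then differed by -0.75 (adjusted p = 0.0625, limma) and Hsd11b1 by -0.55 (adjusted p = 0.0755, limma). The part of liver RNA in these values was not tested.

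Of 28 glucocorticoid-responsive genes 5 were called and all 5 were lower, with a median of -0.15. Zbtb16 (PLZF), a transcription factor induced by glucocorticoids, ranged from 71.6 to 268 in controls (median 175) and from 41.2 to 112 with PB (median 68.1). In all, 7 PB kidneys were below all controls, and it fell by 1.45 ± 0.22 (adjusted p = 0.000545, limma). Crispld2 went from a median of 485 to 281 and fell by 0.72. Fkbp5, the co-chaperone that damps the glucocorticoid receptor, ranged from 465 to 1049 in controls and from 329 to 711 with PB, overlapping in part, and fell by 0.65 ± 0.14 (adjusted p = 0.0108, limma). The phosphatase gene Dusp1 fell by 0.44 and Ndrg1 by 0.33. Of this list 3 genes were called without the 3 kidneys with high fat cell markers, 2 without the 5 with liver transcripts and 1 with the fat cell marker covariate, under which Zbtb16 had an adjusted p of 0.0540 (limma) and Fkbp5 was not called under any of these settings. In liver Zbtb16 and Fkbp5 differed by -0.97 and -0.59, and the tissues were not told apart for either (adjusted p = 0.39 and 0.932, limma), whereas Ndrg1 differed by 1.59 in liver (adjusted p for the difference = 5.85e-08, limma).

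Of 15 tested genes of epithelial immune defence Pigr was the 1 increase and Ccl28 and Il34 were the 2 decreases, and 7 of the 15 differences were above 0. Ccl28, the epithelial chemokine that attracts IgA-secreting plasma cells, ranged from 543 to 1381 in controls (median 1017) and from 264 to 893 with PB (median 549). In all, 5 PB kidneys were below all controls, and it fell by 1.02 ± 0.19 (adjusted p = 0.00311, limma). Both further probe sets of Ccl28 fell by 1.54 and by 1.55. Without the 5 kidneys with liver transcripts Ccl28 differed by -0.95 (adjusted p = 0.0769, limma). Il34, a ligand of the macrophage receptor Csf1r, ranged from 94.9 to 201 in controls and from 72.0 to 108 with PB and fell by 0.79 ± 0.11 (adjusted p = 0.000174, limma).

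Transcripts of the plasma cells themselves were lower as well. Igha, the constant region of IgA, ranged from 545 to 2217 in controls (median 1533) and from 141 to 1710 with PB (median 525), and fell by 1.38 ± 0.36 (adjusted p = 0.0286, limma). Jchain, which joins IgA into polymers, fell by 1.18 ± 0.32 (adjusted p = 0.0349, limma) from a mean of 289 to 133. Igha and Jchain varied together from animal to animal: control kidneys 5 and 9 were lowest among the controls for both and PB kidney 14 was highest among the PB kidneys for both. The call for Jchain was lost in 10 of 20 repeats without 1 kidney and that for Igha in 5. Ptpn22, a phosphatase of lymphocytes, fell by 0.88. Of 3 tested lymphocyte markers both Ptpn22 and Jchain were called, and the summed signal of the 3 ranged from 291 to 680 in controls and from 180 to 458 with PB. Of 12 macrophage and neutrophil markers 0 were called by limma or the Welch test and 1 had an unadjusted p under 0.05, and Csf1r was 1310 ± 56.6 and 1357 ± 74.9.

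**Figure D2:**
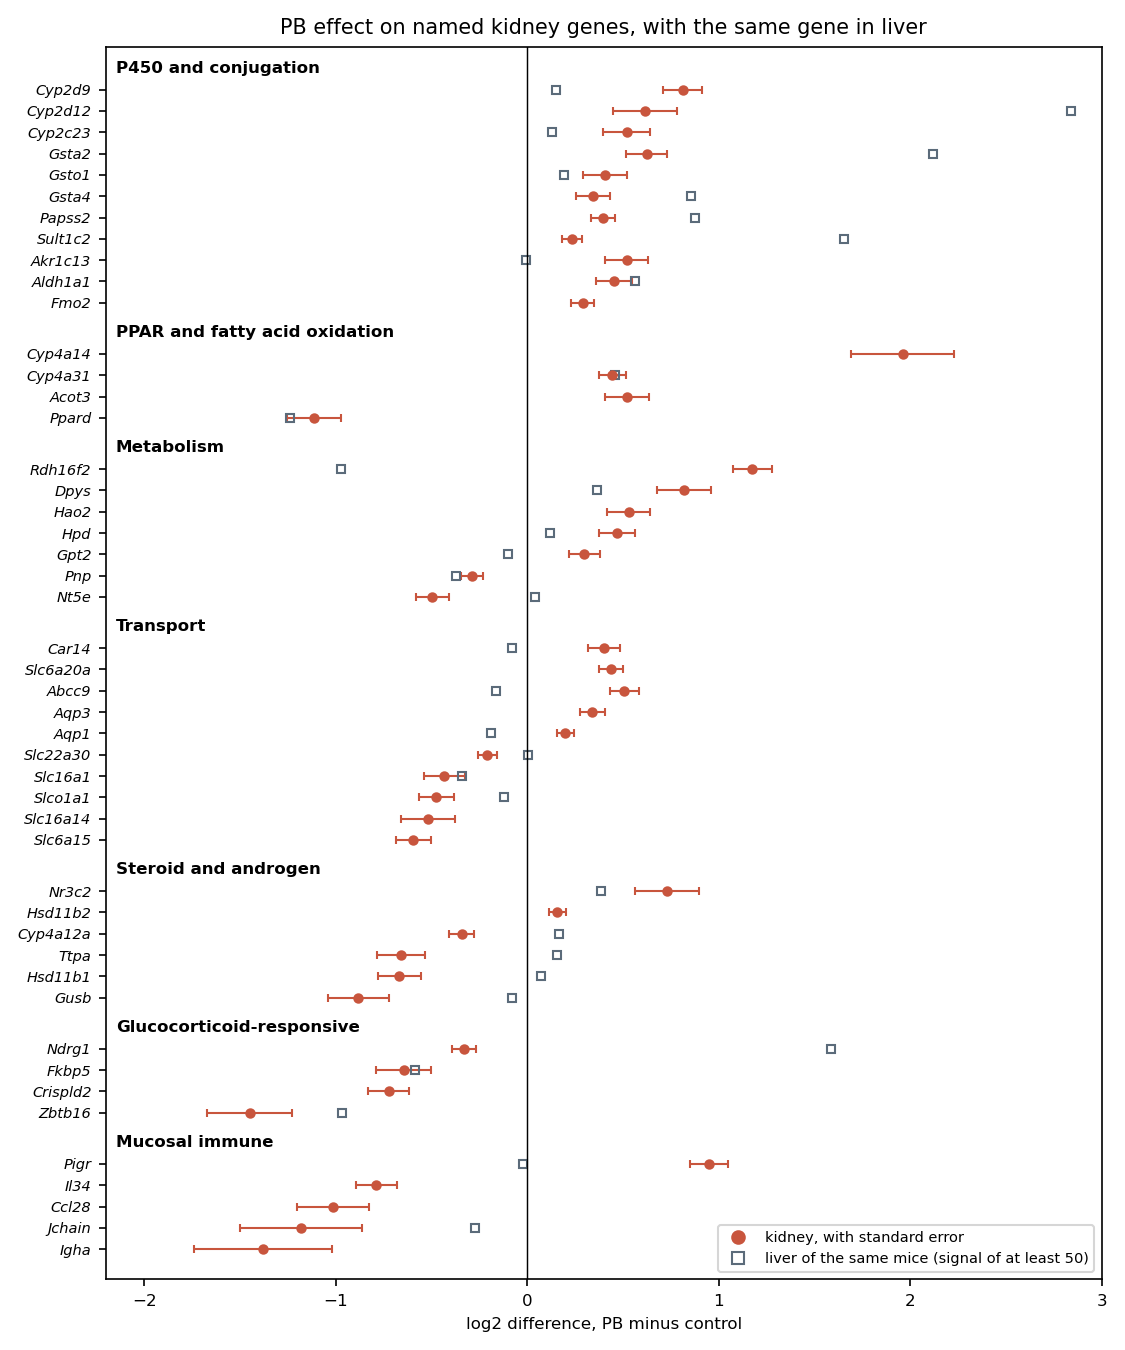
Log2 difference between PB and control (x axis) for named kidney genes grouped by function (y axis), with the standard error (bars) and, as open squares, the difference in the livers of the same mice where the mean liver signal reached 50. Rdh16f2, Pigr, Gusb and Hsd11b1 changed in kidney while their liver difference was near 0 or opposite, and Gsta2 and Sult1c2 changed more in liver.

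Retinoid genes moved in both directions, with 3 of 14 higher and 2 lower. Rarres2 (chemerin, a chemoattractant protein induced by retinoids in skin) ranged from 156 to 220 in controls and from 245 to 457 with PB, without overlap, and rose by 0.61 ± 0.09 (adjusted p = 0.000281, limma). Aldh1a1, which oxidises retinaldehyde, and its relative Aldh1a7 were the other increases. Cyp26b1, which breaks down retinoic acid, had a control mean of 53.9, at least 1.08 times the limit of 50, and a PB mean of 20.2 under it. Its call was lost with signals floored at 50, with the Welch test and without the 5 kidneys with liver transcripts. Rdh10, which makes retinaldehyde, fell by 0.33.

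Further large decreases were in genes on no list or in single members of a list. Synpr, a synaptic vesicle protein, ranged from 54.7 to 201 in controls and from 4.2 to 52.8 with PB, without overlap. The control mean of 91.7 was at least 1.83 times the limit of 50, under which the PB mean of 26.9 lay. Rnf180, a ubiquitin ligase, went from a median of 194 to 88.2 and fell by 1.21. Adamts15, a protease of the extracellular matrix, fell by 0.68 from 132–200 to 77.5–129, again without overlap. Ypel2 fell by 0.74, and Tnfrsf12a, the TWEAK receptor that rises in injured tubules, by 0.87, though its call was lost in 7 of 20 repeats. It was the 1 call among 14 tubular injury genes. Nusap1 of the mitotic spindle was the 1 call among 14 cell cycle genes, with a mean of 52.1 in controls and 30.2 with PB, and its call was lost with signals floored at 50.

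Fat cell genes were the largest increases and were uneven among the treated animals. Of 14 tested markers of white and brown fat 9 were called, all higher, with a median of 1.08. Adipoq, a hormone made only by fat cells, ranged from 3.2 to 116 in controls and from 55.8 to 956 with PB, and its mean rose 5.66-fold. PB kidneys 12 and 15 were highest and PB kidney 11 lowest. Ucp1, the uncoupling protein of brown fat, was at 2.6 in its lowest PB kidney and 609 in its highest. Its call held in 10 of the 20 repeats that left out 1 kidney, and the call for Cidea in 8. Without the 5 kidneys with liver transcripts 0 of 13 tested fat cell markers were called by limma, with a median of 1.03.

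Lipid synthesis genes followed. Of 25 tested, 12 were called higher and none lower, with a median of 0.23. Fasn (fatty acid synthase) ranged from 280 to 480 in controls and from 284 to 1836 with PB, where kidneys 12, 15 and 17 were at 1403, 1836 and 1302. Scd1, the stearoyl-CoA desaturase, was highest in the same 3, at 4362, 5444 and 4808. Without those 3 kidneys 4 genes of the list were called, and with the fat cell marker level as a covariate 1 was called. Mogat2, a monoacylglycerol acyltransferase, did not overlap between groups, with means of 165 and 233. The covariate is built from these fat cell markers themselves and so removes their difference by construction. The part of fat tissue in these values was not tested.

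**Figure D3:**
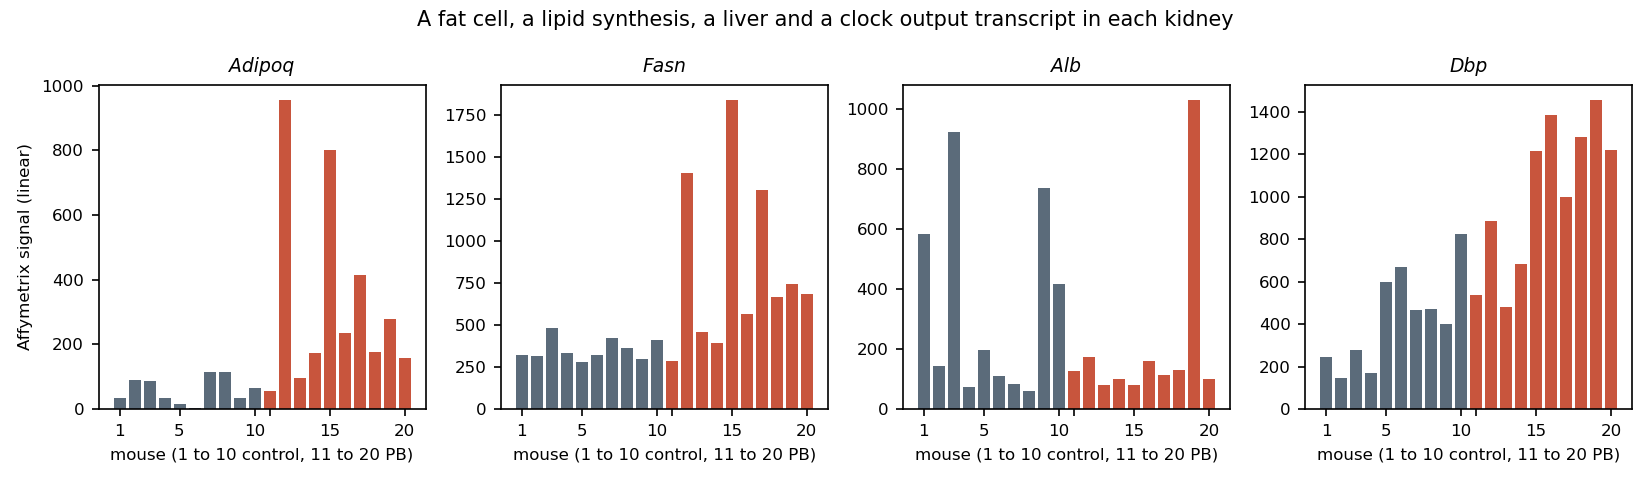
Linear signal (y axis) of Adipoq (fat cells), Fasn (fatty acid synthesis), Alb (liver) and Dbp (clock output) in each kidney, by donor number (x axis; grey controls, red PB). Adipoq and Fasn were highest in PB kidneys 12, 15 and 17, Alb stood out in control kidneys 1, 3, 9 and 10 and PB kidney 19, and Dbp was lowest in control kidneys 1 to 4.

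Of 22 clock genes 6 were higher and 2 lower. Dbp, a transcription factor driven directly by the clock, ranged from 147 to 827 in controls (median 435) and from 480 to 1456 with PB (median 1106) and rose by 1.35 ± 0.28 (adjusted p = 0.00755, limma). Control kidneys 1 to 4 lay between 147 and 279 and controls 5 to 10 between 403 and 827, and PB kidneys 11 to 14 lay between 480 and 887 and 15 to 20 between 998 and 1456. Per2 and Per3, the period repressors, rose by 0.84 and 0.80, and Tef, Nr1d2 and Bhlhe40 by 0.31 to 0.41. The activator Arntl (BMAL1) fell by 0.58. Its relative Npas2 was called lower with a control mean of 56.5, at least 1.13 times the limit of 50, and a PB mean of 29.9, and the call was lost with signals floored at 50. Without the 5 kidneys with liver transcripts 2 clock genes were called higher and 0 lower by limma, and with the fat cell marker covariate 0 were called. No time of killing is given in the sources used here, and its part in these values was not tested. In liver Dbp differed by 2.32 and Per3 by 0.83, and a different effect in kidney was not shown (adjusted p = 0.382 and 0.969, limma).

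The promoter window of Per3 is shown because Dbp and Tef, both called higher, bind the D-box, and this gene was the 1 among 6 called clock genes with a window that held it. The capitals mark both copies of TTATGTAA, which begin 205 and 158 bases before the gene's start. The sequence is from RefSeq for GRCm38.p6, chr4:151044616-151044915, minus strand. These 8 letters, searched on both strands, occur in 0.938% of all windows, and the match does not show binding.
Per3: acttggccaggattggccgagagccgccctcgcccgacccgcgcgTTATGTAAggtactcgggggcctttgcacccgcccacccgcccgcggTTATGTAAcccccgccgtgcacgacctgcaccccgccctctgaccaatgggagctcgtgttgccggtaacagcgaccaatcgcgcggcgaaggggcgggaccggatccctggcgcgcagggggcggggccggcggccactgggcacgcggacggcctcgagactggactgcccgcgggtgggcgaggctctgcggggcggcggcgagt

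**Figure D4:**
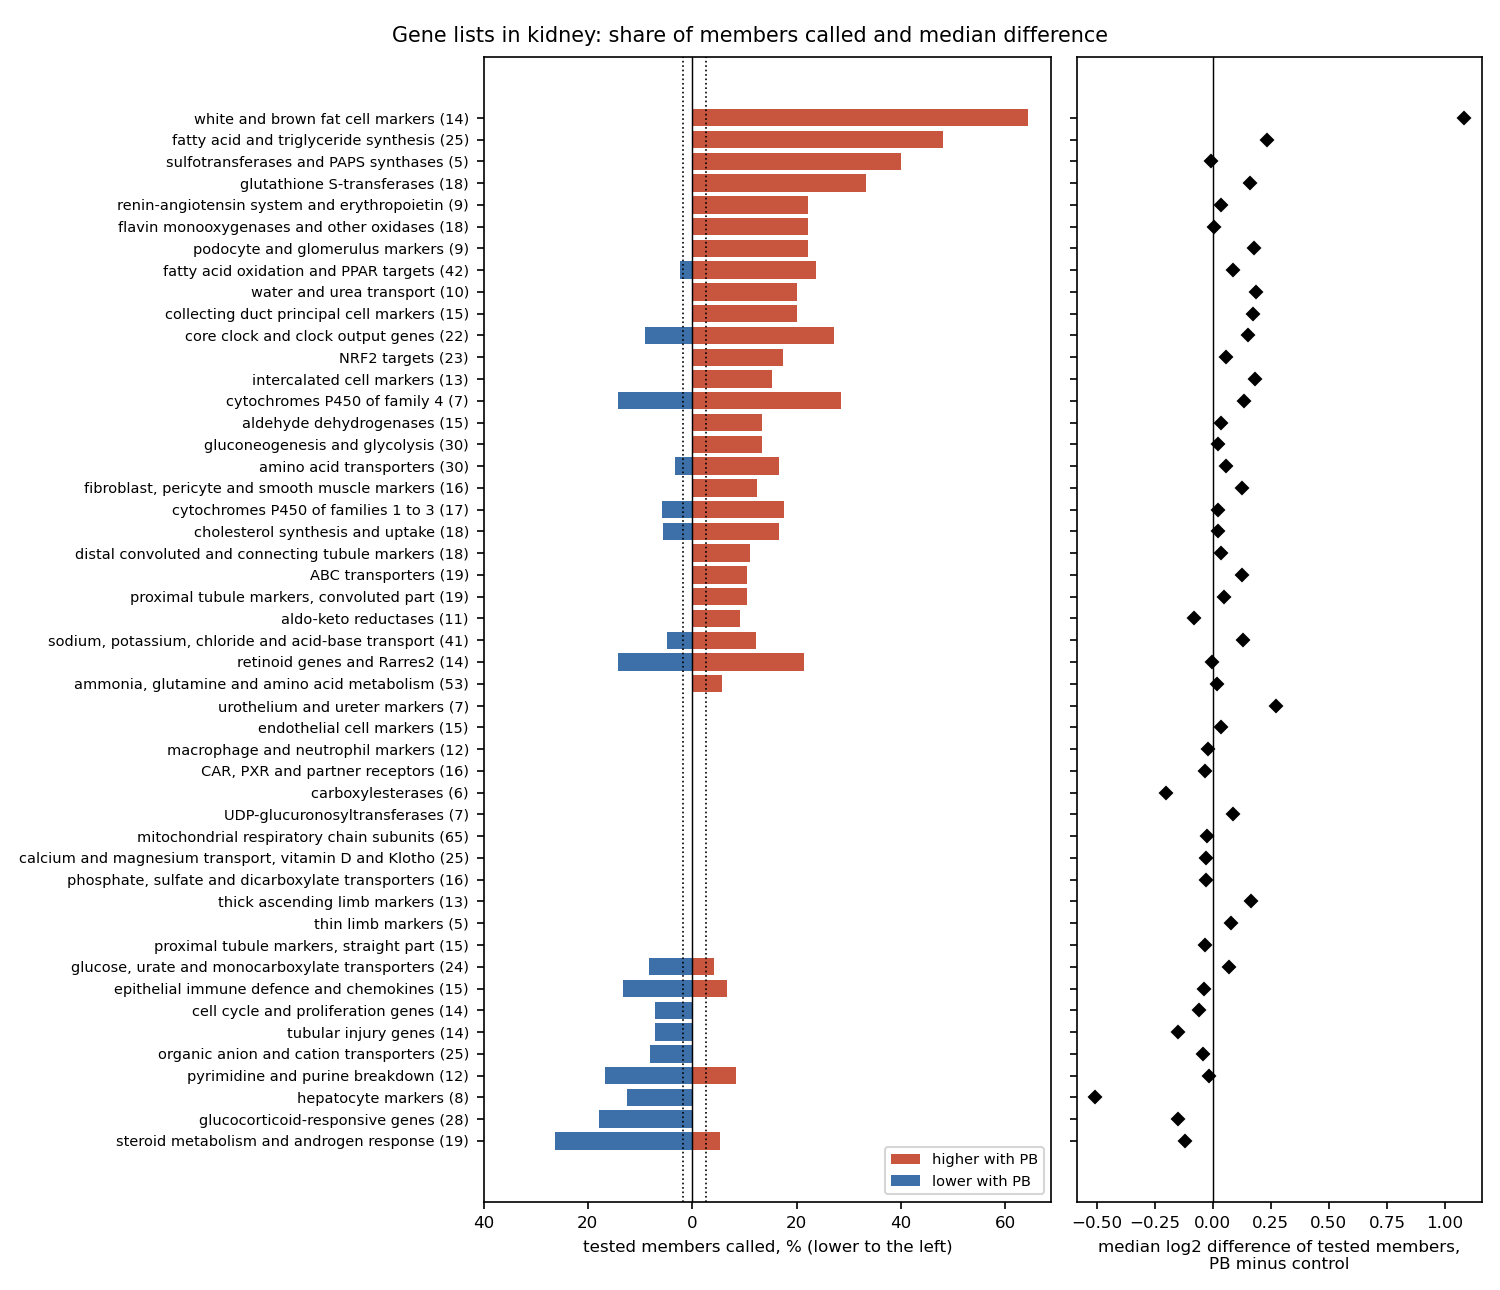
Share of the tested members of each gene list called higher or lower with PB (left; dotted lines at 2.58% and 1.85%, the shares over all genes) and the median log2 difference of the tested members (right); numbers in brackets are tested members. Fat cell and lipid synthesis lists had the largest shares of increases and the steroid and glucocorticoid lists the largest shares of decreases among lists with 10 or more tested genes.

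The kidney effects were last set against those in liver, as the difference of the 2 log2 differences in 1 fit of all 40 arrays. Of 11205 genes tested, 985 had a different PB effect in the 2 tissues (8.79%). Of the 447 genes called in kidney, 127 were among them. Of the 65 named genes that were called in kidney and reached a mean signal of 50 in liver, 29 differed. Rdh16f2 had the largest such difference on the kidney side, 1.18 in kidney and -0.97 in liver (difference 2.15, adjusted p = 8.34e-15, limma). Pigr (difference 0.97), Cyp2d9 (0.66), Abcc9 (0.67) and Akr1c13 (0.52) had the higher effect in kidney. Gusb (-0.80), Hsd11b1 (-0.74), Ttpa (-0.82) and Cyp4a12a (-0.51) had the lower effect in kidney, with liver differences of -0.08, 0.07, 0.16 and 0.17. Gsta2 (-1.49), Sult1c2 (-1.42), Papss2 (-0.48) and Cyp2d12 (-2.22) were higher with PB in both tissues, with the larger effect in liver. Ppard, Zbtb16, Fkbp5, Per2, Per3, Cyp4a31 and Pnp differed in the same direction in both tissues, and a difference between the tissues was not called for any of these 7.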

How the data were processed

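Kidney and liver RNA of 10 control and 10 PB mice was measured on 1 array per tissue and animal. The authors deposited 1 table of intensity values, linear signals made with GCOS and MAS5 per the labels and scaled to a trimmed mean of 150. No reads or counts underlie them, so precision rests on how many arrays each group holds. Of 45037 probe sets, 34945 had 1 gene symbol, 932 several and 9160 none in the platform annotation; 34741 were matched to current RefSeq names, and symbols come from probe sets with 1 symbol only.

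Signals under 1 were set to 1 before log2. Probe sets or genes with a group mean of at least 50 were fitted with limma 3.58.1 (R 4.3.3) on the 20 kidney arrays, and the tissues were compared through an interaction term on all 40. The fit was tested on simulated data. The named genes were the 15 largest increases and 15 largest decreases among called genes, up to 3 members of each gene list, genes of the study's kidney table with a called probe set, and Cyp2b10; others given by value were chosen after their values were seen, among all called members of the lists. The gene lists and the members named were chosen with earlier results of these data known. Of the named genes 46 had more than 1 tested probe set, and in 6 (Calb1, Csf1r, Lrp2, Mme, Tsc22d2 and Uqcrb) these differed in sign.

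Liver and kidney of the same mouse share a donor number, which pairs them. Their deviations from the group means correlated at a median r of 0.079 (lowest -0.0677, highest 0.188), against -0.00943 between different mice. Filters, floors, scalings, other tests, single arrays left out, and 4 settings chosen after seeing the data (2 sets of arrays left out and 2 covariates) were tried as alternatives. The authors' fold changes in the supplementary tables were not used.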

Additional observations from a re-analysis of the deposited data

Results flagged for a closer look

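Several named genes differed in their PB effect between kidney and liver, by the interaction term of the fit on all 40 arrays. Higher in kidney, as kidney minus liver log2 difference, were Rdh16f2 (2.15), Scd1 (1.62), Fabp4 (1.27), Osgin1 (1.07), Pigr (0.97), Lum (0.78), Ugt2b38 (0.72), Abcc9 (0.67), Cyp2d9 (0.66), Abca1 (0.63), Tsc22d2 (0.56), Rgs5 (0.54), Akr1c13 (0.52), Car14 (0.48), Rarres2 (0.45), Gpt2 (0.40) and Aqp1 (0.39). Lower in kidney were Cyp2b10 (-9.38), Cyp2d12 (-2.22), Ndrg1 (-1.92), Gsta2 (-1.49), Sult1c2 (-1.42), Adamts15 (-1.06), Ttc39b (-1.05), Ttpa (-0.82), Gusb (-0.80), Hsd11b1 (-0.74), Cyp4a12a (-0.51), Gsta4 (-0.51), Papss2 (-0.48) and Slco1a1 (-0.36).

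Single kidneys lay far from the rest of their group, by the gap to the nearest kidney as a share of the group's range (Dixon's criterion). Chance flags about 1 in 20 groups. PB kidney 14 was highest for Kap (20090, next 17180), Umod (12820), Slc25a3 (10840), Uqcrb (14860), Ugt2b38 (12180) and Igha (1710, next 920). Control kidney 5 was highest for Hao2 (2054) and Per2 (174.7). PB kidney 12 was highest for Maob (102.3) and Krt7 (668). In controls, Cyp4a14 was highest in kidney 10 (72.2) and Synpr in kidney 7 (200.6), while Slc14a2 was lowest in kidney 4 (11.2), as was Per3 (32.5), and Pvalb was lowest in kidney 2 (572.9). In PB kidneys Slc6a20a was highest in kidney 15 (227.3), Hsp90aa1 in kidney 17 (8531) and Rarres2 in kidney 18 (457.2), and Aldh1a7 was lowest in kidney 13 (692.8).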

How the results depend on the processing

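Counts of called genes depended on the arrays and on the test. Without 1 kidney at a time, called genes ranged from 307 (without control kidney 8) to 621 (without control kidney 5), higher ones from 175 to 338, lower ones from 130 to 283, called probe sets from 393 (without control kidney 8; 411 without PB kidney 19) to 852 (without PB kidney 14), and probe sets past the study's thresholds from 83 to 118. With no signal filter 173 genes were higher and 335 probe sets were called. The Student t-test on linear signals left 59 probe sets past the study's thresholds. The Welch test called 286 genes, 161 of them higher, and 367 probe sets. All 40 arrays in 1 fit gave 150 genes, 90 higher and 60 lower, and 200 probe sets. Among settings chosen after seeing the data, leaving out PB kidneys 12, 15 and 17 gave 241 genes, 141 higher and 100 lower, 310 probe sets and 64 past the study's thresholds. Leaving out control kidneys 1, 3, 9 and 10 and PB kidney 19 gave 61 genes, 43 higher and 18 lower, 78 probe sets and 61 past the thresholds. The fat cell marker covariate gave 41 genes, 24 higher and 17 lower, 53 probe sets and 39 past the thresholds, and turned Cidea (-0.309), Ucp1 (-0.355) and Thrsp (-0.038), which are themselves among the markers it is built from. A proximal tubule marker covariate gave 679 genes, 301 of them lower, and 969 probe sets. With the donor number as a replicate block the genes with a different effect in the tissues numbered 968 (fixed block) or 1106 (random block). Among the 97 named called genes, Cyp4a14, Rdh16f2, Pigr, Ppard, Tsc22d2, Cyp2d9, Cyp4a31, Papss2 and Adamts15 kept their calls under all 19 alternatives and without each kidney in turn. These calls rest on 1 probe set per gene, and the further probe sets of Papss2 and Tsc22d2 were not called.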
